A study of Mus musculus with 81 samples.

Results

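The comparison described here is between 2 myeloid populations sorted from the adult wild-type mouse kidney, one with a high surface level of CD11b and one with a high level of F4/80. The members were chosen by their labels alone: 3 samples labelled as CD11bhigh macrophages and 3 labelled as F4/80high macrophages, which are 6 of the 80 samples (81 arrays) of a microarray series on mouse macrophages through development. The CD11bhigh kidney cells of wild-type mice come first, then the F4/80high kidney cells of the same genotype, and all 6 samples are from adults of 6 weeks. The same contrast was also read in 3 further settings: in adult kidney of mice labelled Irf8 knockout (3 CD11bhigh and 3 F4/80high samples), in adult wild-type liver (3 CD11bhigh samples and 3 of Kupffer cells, the resident macrophages of liver), and in wild-type kidney at embryonic day 14 (3 CD11bhigh and 2 F4/80high samples). All kidney tissue was digested with collagenase, and liver with dispase and DNase as well, before fluorescence-activated sorting. The labels used here give no strain, sex, number of animals pooled or shared animal for any sample, so the spread between samples may be partly technical. In the main fit the p-values rest on a spread pooled over all 27 groups of the series, not on that of the compared samples alone.

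CD11b is the product of Itgam, an integrin chain that pairs with the product of Itgb2 to form complement receptor 3 and is present on monocytes, neutrophils, natural killer cells and many macrophages. F4/80 is the product of Adgre1, an adhesion receptor long used to mark resident mouse macrophages. In the mouse kidney, F4/80high cells are the network of resident macrophages that lies between the tubules, while a CD11bhigh gate can hold cells recently arrived from blood along with other leukocytes that carry the integrin. All values are log2 intensities of the probe with the highest mean for a gene, so values of one gene are compared between samples and never with those of another gene. In sorted bulk samples, fewer cells of a type and less RNA per cell cannot be told apart.

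The 6 samples had array medians between 3.02 and 3.08, and 17099 genes were above the table's median of 3.041 (called the floor below) in at least 2 of all arrays. The CD11bhigh samples varied more among themselves than most groups of the series: the median SD of a gene was 0.345 over the 3 CD11bhigh samples, which ranked 26th of 27 groups from the lowest, and 0.235 over the 3 F4/80high samples, which ranked 17th. Correlations across genes were 0.915 to 0.942 within CD11bhigh, 0.967 to 0.976 within F4/80high and 0.885 to 0.928 between the gates. CD11bhigh replicate 1 stood apart. Its correlation was 0.928 with F4/80high replicate 1, against 0.935 and 0.915 with CD11bhigh replicates 2 and 3. The mean log2 level of 27 kidney tubule genes was 8.61, 6.66 and 5.67 in CD11bhigh replicates 1 to 3, and 6.74, 4.78 and 5.60 in F4/80high replicates 1 to 3, so replicate 1 was the highest of both gates. The part of tubule RNA in the results below was not tested, and counts are therefore also given without replicate 1 where that matters.

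The gate genes differed in the direction of the gates. Itgam was at 9.06, 9.35 and 9.66 in the CD11bhigh samples, against 7.39, 7.87 and 8.36 in the F4/80high samples, a difference of 1.49 ± 0.25 (log2, SE, n = 3 each) with an adjusted p of 2.87e-06 by limma. Adgre1 was at 7.73, 8.63 and 8.74 in the CD11bhigh samples, against 10.12, 10.39 and 10.26 in the F4/80high samples, a difference of -1.89 ± 0.26 (limma, adjusted p = 4.76e-08). Neither gene's samples overlapped between the gates, yet both transcripts were well above the floor on both sides. As the sort used these 2 proteins, this is a check of the labels and not a result.

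Across all genes, the gates differed widely. Of 17099 genes, 4030 passed an adjusted p of 0.05 in a limma fit of all 80 samples (23.6%), 1560 of them higher in CD11bhigh cells (9.12%) and 2470 lower (14.4%). The 3 samples of each gate did not overlap in 4894 of all genes tested (28.6%), of which 3201 were among those called, and 3739 of the called genes had the same sign in all 3 same-numbered pairs. The median size of a called difference was 0.97 on the log2 scale, and the median over all genes was -0.01. Differences over 1 on the log2 scale were found for 879 genes that were higher and 1046 that were lower, and those over 4 for 39 and 19. The count depends on how the spread is estimated. The fit of all samples pools it over 27 groups, and the CD11bhigh group ranked 26th of them in median SD. The pooled spread can thus be too small for this group, and the p-values with it. When the 6 samples alone were fitted, 1387 genes were called, 504 higher and 883 lower, of which 1363 were also called with all samples. Below, a gene called is one that passed in the fit of all samples, and the adjusted p of the 6-sample fit is given where it ends the call. Counts of list members in the fit of all samples are to be read against the 9.12% and 14.4% of all genes. A count near its share is no result about the list. Counts in the 6-sample fit are to be read against the 504 higher and 883 lower of 17099 genes in that fit.

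**Figure D1:**
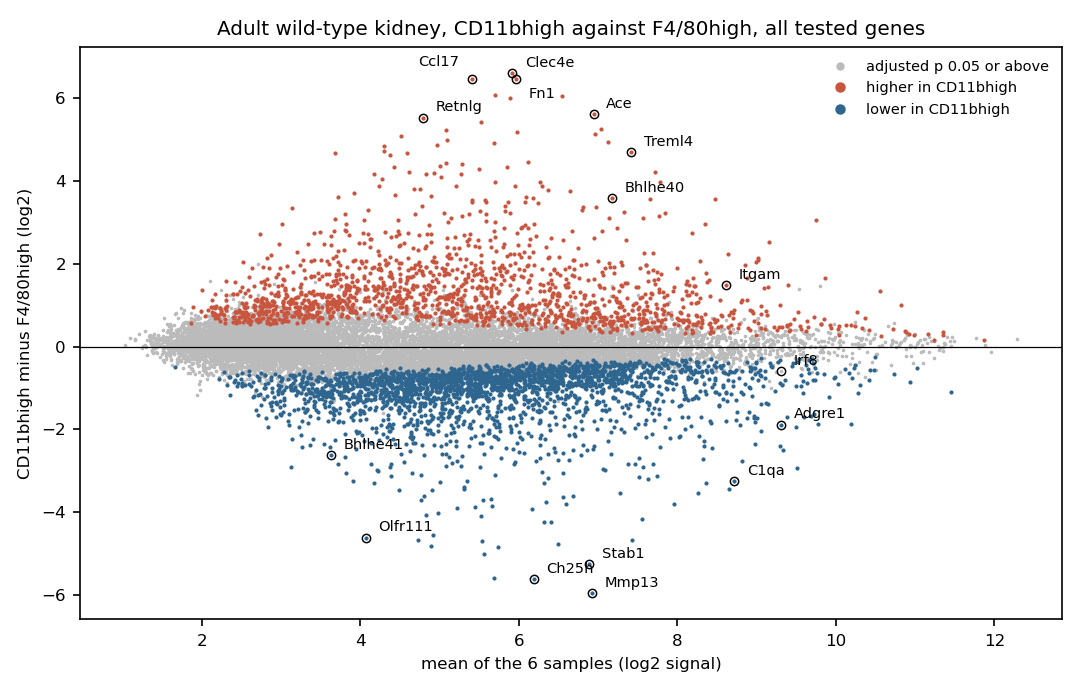
Each point is 1 of 17099 genes, with the mean log2 level of the CD11bhigh and F4/80high samples on the x axis and the CD11bhigh minus F4/80high difference (log2) on the y axis. Called genes are coloured, 1560 above and 2470 below zero, and the named genes include Clec4e at 6.60 and Mmp13 at -5.95.

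The largest rises were led by Clec4e, Ccl17 and Fn1. Clec4e encodes Mincle, a C-type lectin receptor for mycobacterial glycolipids and products of dying cells. Its level was 8.52, 9.48 and 9.65 in CD11bhigh cells, against 2.61, 3.09 and 2.16 in F4/80high cells, a difference of 6.60 ± 0.44 (limma adjusted p = 2.1e-19). Ccl17, a chemokine that attracts T cells, was at 8.37, 8.77 and 8.79 in CD11bhigh cells, against 1.96, 1.78 and 2.79 in F4/80high cells (6.47 ± 0.53). Fn1, which encodes fibronectin, was at 8.51, 9.16 and 9.92 in CD11bhigh cells, against 2.72, 2.50 and 3.00 in F4/80high cells (6.46 ± 0.38). For these 3 genes the F4/80high samples were at or near the floor, and no sample of one gate came within several log2 units of the other.

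Chil3, a secreted chitinase-like protein of monocytes and activated macrophages, was at 8.57, 9.92 and 10.20 in CD11bhigh cells, against 2.77, 3.56 and 4.26 in F4/80high cells (6.03 ± 0.69). Ace, the angiotensin-converting enzyme, was at 9.44, 10.01 and 9.80 in CD11bhigh cells, against 4.95, 3.45 and 4.04 in F4/80high cells (5.60 ± 0.40). Il6, the pleiotropic inflammatory cytokine, was at 5.84, 7.69 and 7.66 in CD11bhigh cells, against 1.83, 1.64 and 2.45 in F4/80high cells (5.08 ± 0.60). In Chil3 and Il6 the lowest CD11bhigh value belonged to replicate 1, as it did in most of the rises that follow. Retnlg, a resistin-like protein found in neutrophils and monocytes, was the most uneven of them, at 4.11, 9.11 and 9.45 in CD11bhigh cells, against 1.35, 1.60 and 3.15 in F4/80high cells (5.52 ± 0.69, adjusted p = 0.0342 in the 6-sample fit). Mcemp1 (6.07 ± 0.55), the haptoglobin gene Hp (6.00 ± 0.51), Gpr141 (5.41 ± 0.37), Ifitm6 (5.25 ± 0.51), the peptidoglycan-binding protein gene Pglyrp1 (5.13 ± 0.58), Plac8 (4.93 ± 0.34), the guanine deaminase gene Gda (4.92 ± 0.41) and the protease inhibitor gene Slpi (4.86 ± 0.53) completed the 15 largest.

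The largest falls were led by Mmp13, Ch25h and Stab1. Mmp13, a collagenase, was at 5.14, 2.71 and 4.004 in CD11bhigh cells, against 10.04, 9.82 and 9.84 in F4/80high cells, a difference of -5.95 ± 0.40 (limma, adjusted p = 5.39e-19). Ch25h, which makes 25-hydroxycholesterol, was at 5.08, 2.50 and 2.57 in CD11bhigh cells, against 9.22, 8.67 and 9.09 in F4/80high cells (-5.61 ± 0.43). Stab1, the scavenger receptor stabilin-1, was at 3.97, 3.46 and 5.36 in CD11bhigh cells, against 9.09, 9.83 and 9.60 in F4/80high cells (-5.25 ± 0.30). The F4/80high values of each gene lay close together, while the CD11bhigh values were scattered around and above the floor.

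Hpgds, the hematopoietic prostaglandin D synthase, was at 4.17, 4.23 and 4.22 in CD11bhigh cells, against 8.44, 8.53 and 8.35 in F4/80high cells (-4.23 ± 0.25). P2ry12, an ADP receptor best known from microglia and platelets, was at 4.57, 3.36 and 4.93 in CD11bhigh cells, against 7.73, 8.81 and 9.03 in F4/80high cells (-4.24 ± 0.38). Vcam1, an adhesion molecule for the integrin pair of Itga4 and Itgb1, was at 2.59, 3.03 and 3.98 in CD11bhigh cells, against 7.19, 8.93 and 7.53 in F4/80high cells (-4.69 ± 0.46). Hpgds was the most even of these genes on both sides. The other large falls were the semaphorin receptor gene Plxna4 (-4.84 ± 0.30), the organic anion transporter gene Slco2b1 (-4.76 ± 0.27), the collagen gene Col14a1 (-4.66 ± 0.24), the chemokine gene Ccl12 (-4.66 ± 0.49), Olfr111, annotated as an olfactory receptor (-4.61 ± 0.51), Ms4a14 (-4.54 ± 0.34), the platelet factor 4 gene Pf4 (-4.16 ± 0.58), the glycosyltransferase gene Gbgt1 (-4.10 ± 0.33) and Pmp22 (-4.07 ± 0.40). All 30 leading genes were also called in the 6-sample fit and without any 1 sample, with the highest 6-sample adjusted p, 0.0342, at Retnlg. They were chosen for their size, so their direction is a description.

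**Figure D2:**
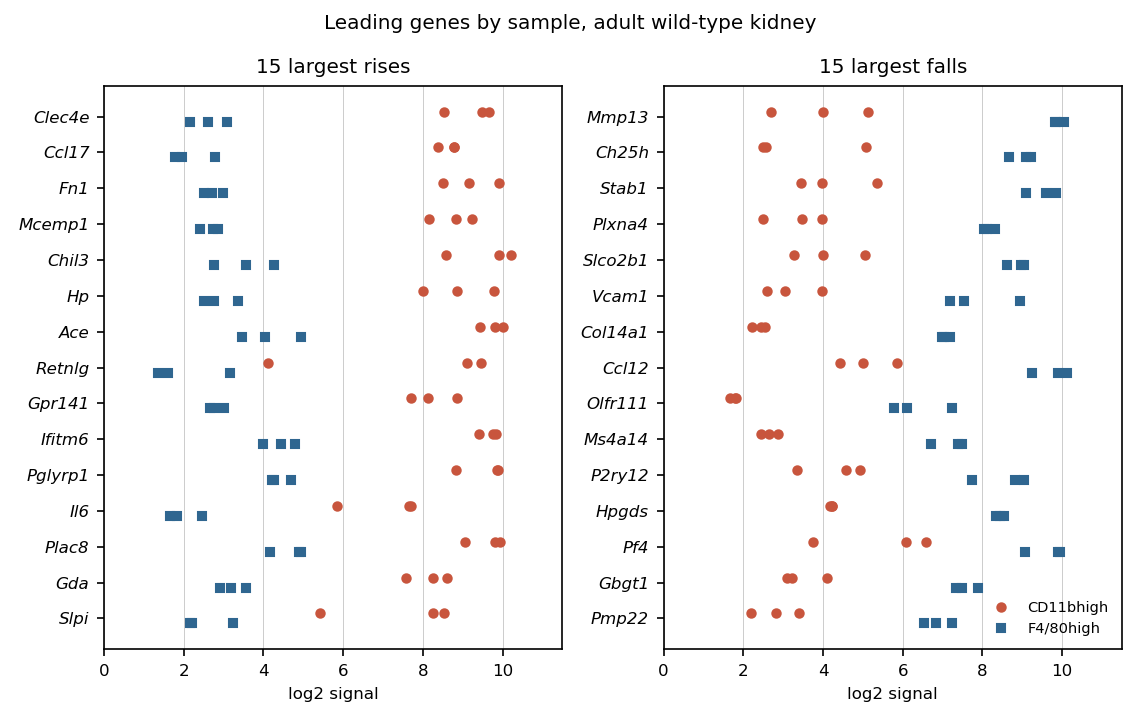
The log2 level of the 30 leading genes is plotted along the x axis for each of the 6 samples, with the 15 rises and the 15 falls in separate panels. Circles are CD11bhigh samples and squares are F4/80high samples. The gates do not overlap in any of the 30, and Retnlg in CD11bhigh replicate 1, at 4.11, lies far below its other CD11bhigh values of 9.11 and 9.45.

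Several of these genes lie beside relatives on the chromosome, in clusters singled out after their values were seen. On chromosome 4, the neighbours C1qb, C1qc and C1qa, which encode the 3 chains of complement C1q, were all lower in CD11bhigh cells, by -2.93, -2.85 and -3.24 (log2). On chromosome 11, the CC chemokine genes Ccl2 (-2.44), Ccl7 (-3.64), Ccl12 (-4.66) and Ccl8 (-2.68) were all lower, while on chromosome 8 Ccl22 (3.603) and Ccl17 (6.47) were both higher. Other clusters were split between directions. On chromosome 6, Clec4d (2.37) and Clec4e (6.60) were higher in CD11bhigh cells, and their neighbours Clec4a2 (-1.38, adjusted p = 0.072 in the 6-sample fit) and Clec4n (-2.45) were lower. On chromosome 19, Ms4a8a (4.62) was higher and Ms4a14 (-4.54) and Ms4a7 (-3.53) were lower, while Ms4a4c (2.13), from the same cluster, was higher.

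**Figure D3:**
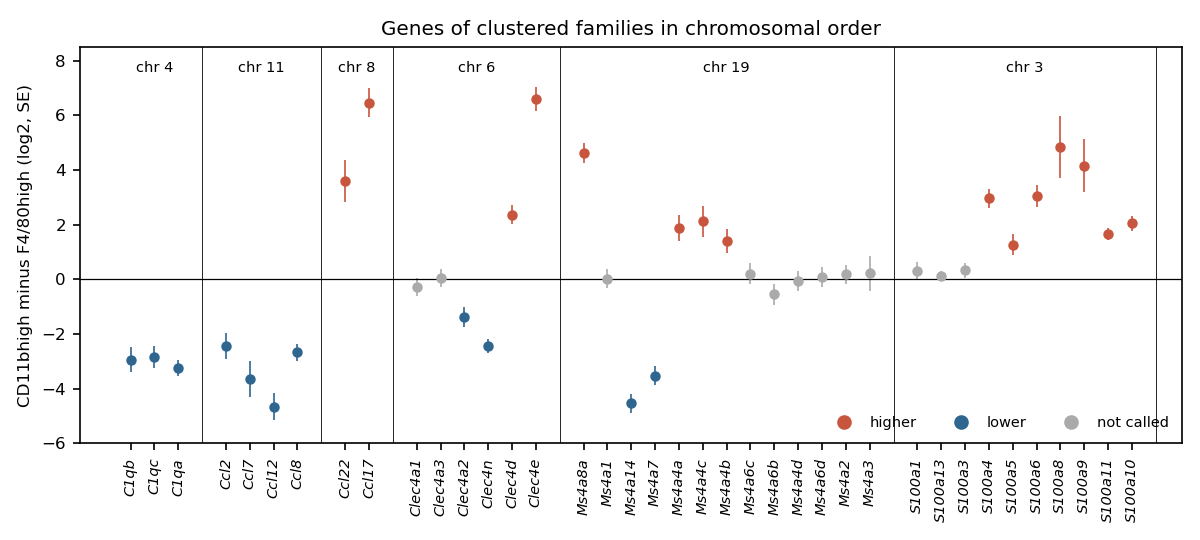
Points give the CD11bhigh minus F4/80high difference (log2), with bars for the SE, for the members of gene clusters in their order along the chromosome. Called genes are coloured by direction and the others are grey. The C1q genes and the chromosome 11 chemokine genes all lie below zero, while the clusters of Clec4 and Ms4a genes hold points of both signs.

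The promoters of a pair that was lower together and of a pair that was higher together are printed, since these neighbours moved alike, although the second pair lies beside Clec4a2 and Clec4n, which were lower. The sequences are RefSeq's, on build GRCm38.p6, and each is 300 bases long, most of them before the annotated start, 5′ to 3′ along the gene. Capitals mark the core GAGGAA of sites for PU.1, the myeloid factor encoded by Spi1, on either strand. The windows are chr4:136886151-136886450 (minus strand) for C1qb, chr4:136892865-136893164 (minus strand) for C1qc, chr6:123261857-123262156 (plus strand) for Clec4d and chr6:123289822-123290121 (minus strand) for Clec4e.
C1qb: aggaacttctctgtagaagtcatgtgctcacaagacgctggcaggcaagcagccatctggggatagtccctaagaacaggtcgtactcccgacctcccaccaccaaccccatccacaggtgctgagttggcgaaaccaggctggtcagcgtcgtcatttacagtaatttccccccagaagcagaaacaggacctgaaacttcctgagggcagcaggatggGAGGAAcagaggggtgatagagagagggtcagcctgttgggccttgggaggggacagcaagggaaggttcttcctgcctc
C1qc: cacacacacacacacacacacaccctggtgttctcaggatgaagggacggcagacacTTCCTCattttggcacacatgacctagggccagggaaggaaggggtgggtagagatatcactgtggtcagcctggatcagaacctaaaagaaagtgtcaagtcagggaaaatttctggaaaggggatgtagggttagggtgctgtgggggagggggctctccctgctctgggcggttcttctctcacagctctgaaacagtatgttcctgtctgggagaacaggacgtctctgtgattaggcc
Clec4d: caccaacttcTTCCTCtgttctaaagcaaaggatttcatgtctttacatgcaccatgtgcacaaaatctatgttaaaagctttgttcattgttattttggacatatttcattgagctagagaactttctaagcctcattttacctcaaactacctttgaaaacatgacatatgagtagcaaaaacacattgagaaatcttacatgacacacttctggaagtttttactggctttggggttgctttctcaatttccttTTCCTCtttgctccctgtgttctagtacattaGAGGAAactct
Clec4e: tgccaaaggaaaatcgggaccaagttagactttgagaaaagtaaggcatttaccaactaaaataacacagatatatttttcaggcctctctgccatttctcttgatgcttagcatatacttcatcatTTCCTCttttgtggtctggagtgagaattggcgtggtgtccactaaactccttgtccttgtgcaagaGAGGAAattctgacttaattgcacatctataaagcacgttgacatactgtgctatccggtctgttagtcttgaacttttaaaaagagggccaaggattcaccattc
The C1q windows held 1 match each, the Clec4d window 3 and the Clec4e window 2, on both sides of the comparison alike. Of all 32851 such windows in the RefSeq table, 28.3% hold this core on one strand or the other. Of the leading genes, 13 rises with 15 windows and 12 falls with 17 windows were found in the table, and the core was in 6 and 8 of these windows. The C/EBP motif TTGCNNAA, which 10.8% of all windows hold, was in 6 of the 15 windows of the rises and in 4 of the 17 windows of the falls. It occurred once in the Clec4e window, without overlap with the PU.1 core, and in none of the other 3 printed. The E-box CACGTG (7.15% of all windows), the AP-1 motif TGANTCA (7.81%) and the NR4A motif AAAGGTCA (1.51%) were not in the 4 windows, which says only that these letters are not in this stretch.

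Among the genes that mark cell types, those of monocytes and of resident macrophages stood on opposite sides. Of 29 monocyte markers tested, 25 were higher in CD11bhigh cells (23 in the 6-sample fit), against a background of 9.12% of all genes, and their median difference was 2.87. The mean log2 level of the list was 8.16 to 8.91 in the CD11bhigh samples, against 5.38 to 5.64 in the F4/80high samples. Treml4, a receptor of Ly6C-low monocytes, was at 9.56, 9.77 and 9.98 in CD11bhigh cells, against 5.26, 4.997 and 4.96 in F4/80high cells (4.70 ± 0.28). Cd300e, an activating receptor of monocytes, was at 7.43, 7.43 and 7.59 in CD11bhigh cells, against 2.93, 3.16 and 3.17 in F4/80high cells (4.39 ± 0.29). Both genes had tight values and wide gaps. Ccr2, the receptor that brings monocytes out of marrow, was at 8.73, 8.45 and 8.83 in CD11bhigh cells, against 7.07, 7.23 and 7.41 in F4/80high cells (1.43 ± 0.32). F13a1, which encodes the factor XIII A chain, was at 6.79, 7.94 and 7.91 in CD11bhigh cells, against 2.72, 5.29 and 6.03 in F4/80high cells (2.87 ± 0.46), and its adjusted p was 0.0569 in the 6-sample fit.

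Of 39 resident macrophage genes, 29 were lower in CD11bhigh cells (23 in the 6-sample fit), against a background of 14.4%, and their median difference was -1.61. The gate gene Adgre1 was among the 29, and that member is only a check of the labels. The mean level of the list was 6.49 to 6.54 in the CD11bhigh samples, against 7.73 to 8.34 in the F4/80high samples. Mrc1, the mannose receptor, was at 7.02, 5.90 and 7.25 in CD11bhigh cells, against 9.55, 10.27 and 10.21 in F4/80high cells (-3.29 ± 0.38). C1qa was at 7.30, 6.64 and 7.34 in CD11bhigh cells, against 10.31, 10.60 and 10.12 in F4/80high cells (-3.24 ± 0.31). Mertk, a kinase receptor for the engulfment of dying cells, was at 4.89, 5.41 and 3.57 in CD11bhigh cells, against 6.38, 7.31 and 6.83 in F4/80high cells (-2.22 ± 0.33). These 3 genes were lower in every CD11bhigh sample but above the floor in all 6. Csf1r, the receptor for the main macrophage growth factor, was lower by a smaller amount (-0.93). Cd163 (-1.61), Folr2 (-1.66) and Trem2 (-1.08) were lower with all samples but not in the 6-sample fit, with adjusted p of 0.281, 0.28 and 0.318. Id3, an inhibitor of E-protein transcription factors, was the one member that was higher (2.46).

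The CD11bhigh samples also carried markers of leukocytes other than monocytes. Of 24 natural killer and T cell markers, 13 were higher (11 in the 6-sample fit) and 5 were lower, against 9.12% and 14.4% of all genes. The mean level of the list was 5.50 to 6.16 in the CD11bhigh samples, against 4.61 to 5.02 in the F4/80high samples. Klrd1, the CD94 chain of natural killer receptors, was at 8.11, 8.16 and 8.47 in CD11bhigh cells, against 3.76, 4.76 and 4.91 in F4/80high cells (3.77 ± 0.51). Gzma, a granzyme, was at 7.77, 8.39 and 8.62 in CD11bhigh cells, against 3.97, 4.19 and 4.68 in F4/80high cells (3.98 ± 0.46). Ncr1, the natural killer receptor NKp46, was at 5.90, 6.81 and 7.04 in CD11bhigh cells, against 2.85, 2.58 and 2.89 in F4/80high cells (3.81 ± 0.46). All 3 were far lower in every F4/80high sample, and Ncr1 was below the floor there. The 5 lower genes of the list were T cell genes, while other T cell genes of it, such as Cd2 (0.78) and Cd8a (-0.87), did not pass. Cd4 was at 3.46, 3.52 and 3.58 in CD11bhigh cells, against 6.65, 8.00 and 7.49 in F4/80high cells (-3.86 ± 0.34). The CD3 genes Cd3g (-2.88 ± 0.46), Cd3e (-2.10 ± 0.45) and Cd3d (-1.97 ± 0.50) were lower too, and in F4/80high cells they lay between 5.39 and 6.68. Cd8b1 was lower with all samples (-1.82) and had an adjusted p of 0.0765 in the 6-sample fit.

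Of 26 conventional dendritic cell markers, 14 were higher (10 in the 6-sample fit) and 2 were lower, against 9.12% and 14.4% of all genes. Flt3, the growth factor receptor of dendritic cell precursors, was at 6.94, 6.27 and 6.90 in CD11bhigh cells, against 2.44, 3.18 and 3.61 in F4/80high cells (3.63 ± 0.34). Zbtb46, a transcription factor of conventional dendritic cells, was at 4.51, 4.85 and 4.91 in CD11bhigh cells, against 3.24, 2.95 and 3.33 in F4/80high cells (1.59 ± 0.26). The chemokine receptor gene Xcr1 of the cross-presenting subset was near the floor in both gates, at 2.75 to 3.44 in CD11bhigh and 3.00 to 3.68 in F4/80high cells, and did not pass the test. Of 24 neutrophil markers, 9 were higher (6 in the 6-sample fit). Cd177, Mmp8, Retnlg, S100a9 and Trem1 had the smallest limma adjusted p of these 9. S100a8 was at 5.05, 6.11 and 9.03 in CD11bhigh cells, against 1.59, 1.41 and 2.65 in F4/80high cells (4.85 ± 1.14), and S100a9 at 4.54, 7.72 and 8.47 in CD11bhigh cells, against 2.94, 2.46 and 2.85 in F4/80high cells (4.16 ± 0.96). These calprotectin genes, which monocytes also express, were lowest in replicate 1 among the CD11bhigh samples. Camp, which encodes the neutrophil granule peptide cathelicidin, was at or below the floor in all 6 samples, and Ngp, Ltf, Lcn2, Elane and Mpo did not pass.

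The lists of other cell types were short, and their counts are read against the 9.12% of all genes that were higher and the 14.4% that were lower. Of 15 B cell markers, 2 were higher (1 in the 6-sample fit and without F4/80high replicate 2 or 3) and 3 lower, with Blnk, an adaptor that macrophages also express, at -3.20 ± 0.30 and Ms4a1 at or below the floor in all samples. Of 9 plasmacytoid dendritic cell markers, 2 were higher (1 without F4/80high replicate 3) and 2 lower. Of 14 basophil, mast cell and eosinophil markers, 3 were higher (1 without CD11bhigh replicate 3), calls that the 6-sample fit lost, and Mcpt8, Cpa3, Fcer1a, Ms4a2, Prg2 and Epx were at or below the floor throughout. Ccr3, the eotaxin receptor, was at 2.99, 7.25 and 7.30 in CD11bhigh cells, against 2.31, 4.20 and 2.90 in F4/80high cells (2.71 ± 0.59, adjusted p = 0.184 in the 6-sample fit). Replicate 1 alone of the CD11bhigh samples was near the floor for it. Of 19 endothelial markers, 2 were higher, Flt1 (1.92 ± 0.33) and Pecam1 (1.28 ± 0.26), and Eng was lower (-1.98 ± 0.29), with Tek at or below the floor. Of 7 erythroid and platelet genes, Pf4 and Epor (-2.27 ± 0.30) were lower. Of 13 podocyte, mesangial and fibroblast markers, Acta2 alone was called (1.38 ± 0.39). It was at 7.38, 3.82 and 4.54 in CD11bhigh cells, against 3.87, 3.78 and 3.95 in F4/80high cells, and its difference was 0.32 without CD11bhigh replicate 1, where it was not called. The 4 sex-linked genes had limma adjusted p of 0.643 (Kdm5d) or more.

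Of 27 kidney tubule markers, 15 were higher in CD11bhigh cells in the fit of all samples and 2 in the 6-sample fit. The share of all genes that were higher in the fit of all samples was 9.12%, and the 6-sample fit called 504 of 17099 higher. Without CD11bhigh replicate 1 the count was 9, as it was without F4/80high replicate 2, and without replicate 1 of both gates it was 12. Slc22a6, an organic anion transporter of the proximal tubule, was at 9.15, 7.17 and 6.07 in CD11bhigh cells, against 4.75, 4.57 and 4.46 in F4/80high cells (2.87 ± 0.42, adjusted p = 0.0325 in the 6-sample fit). Lrp2, the megalin gene, was at 9.01, 7.73 and 6.03 in CD11bhigh cells, against 6.98, 4.47 and 4.82 in F4/80high cells (2.17 ± 0.44, adjusted p = 0.164 in the 6-sample fit). Umod, the gene for uromodulin, was at 10.16, 6.12 and 8.52 in CD11bhigh cells, against 8.87, 4.90 and 9.33 in F4/80high cells, and did not pass. Tubule transcripts were thus above the floor in both gates and uneven among replicates.

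**Figure D4:**
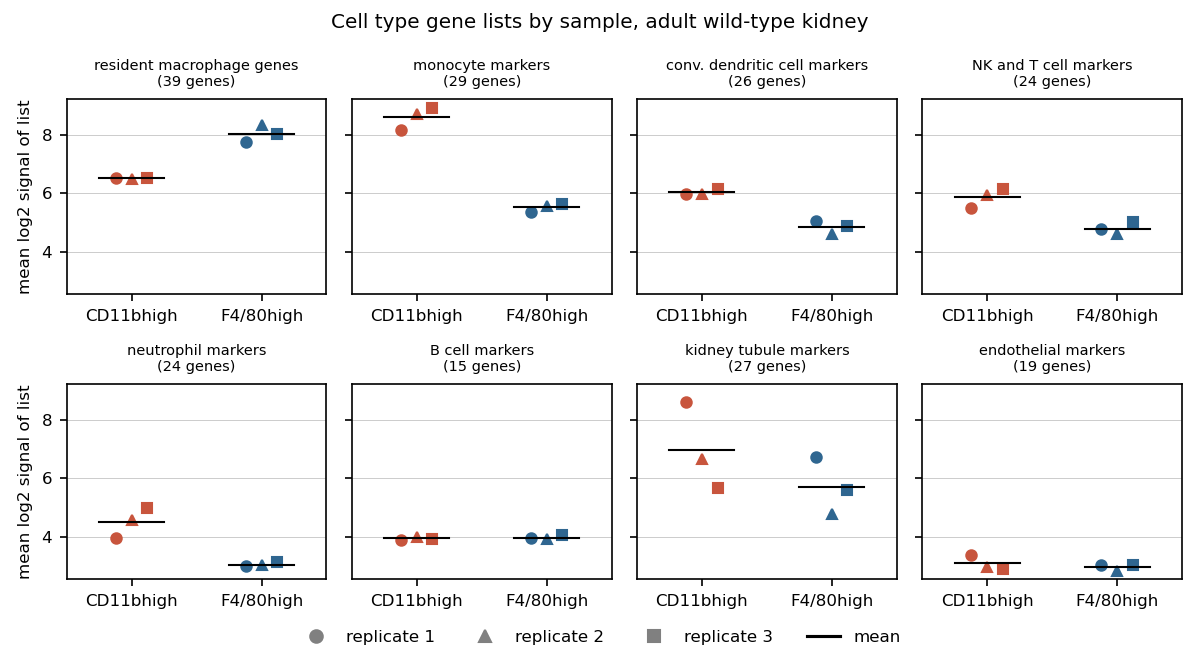
Points give the mean log2 level of each list of genes in each sample, CD11bhigh to the left of F4/80high. Monocyte markers lie at 8.16 to 8.91 in CD11bhigh and 5.38 to 5.64 in F4/80high samples, resident macrophage genes lie the other way, and kidney tubule markers are highest in replicate 1 of each gate.

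Receptors and ligands of the chemokine system differed by family. Of 24 chemokine ligand genes, 10 were lower in CD11bhigh cells and 3 higher, against 14.4% and 9.12% of all genes. The count of higher ligands was near its share. Cxcl16, a membrane-bound ligand for CXCR6, was at 8.10, 8.12 and 8.07 in CD11bhigh cells, against 10.62, 10.48 and 10.38 in F4/80high cells (-2.40 ± 0.35), and Ccl12, a ligand of CCR2, was at 4.995, 4.43 and 5.86 in CD11bhigh cells, against 9.25, 10.11 and 9.90 in F4/80high cells. So the genes of the CCR2 ligands Ccl2, Ccl7 and Ccl12 were lower, and Ccr2 was higher, in CD11bhigh cells. Of 21 chemokine and related receptors, 7 were higher (2 in the 6-sample fit and 4 without CD11bhigh replicate 2) and 4 lower. S1pr5, a sphingosine 1-phosphate receptor of patrolling monocytes and natural killer cells, was at 6.39, 7.43 and 7.63 in CD11bhigh cells, against 3.44, 4.13 and 4.06 in F4/80high cells (3.27 ± 0.26). Its relative S1pr1 was at 3.32, 3.04 and 2.97 in CD11bhigh cells, against 5.52, 5.41 and 5.15 in F4/80high cells (-2.25 ± 0.34). The complement anaphylatoxin receptors C5ar1 (-2.49 ± 0.33) and C3ar1 (-3.81 ± 0.38) were both lower, among 9 of 20 complement genes that were lower and 4 that were higher. The gate gene Itgam was among those 4.

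Cytokine genes moved in both directions. Of 24 cytokines and antagonists, 5 were higher (3 without CD11bhigh replicate 3) and 6 lower (2 without CD11bhigh replicate 1). The shares of all genes were 9.12% higher and 14.4% lower. Beside Il6, the interleukin-1 antagonist gene Il1rn (1.93 ± 0.32) and the co-stimulatory ligand gene Tnfsf9 (1.78 ± 0.40) were higher. Tnfsf13b, the B cell survival factor BAFF, was at 4.30, 3.45 and 3.75 in CD11bhigh cells, against 6.84, 6.11 and 6.85 in F4/80high cells (-2.77 ± 0.28), and Il15 was lower with all samples (-0.99 ± 0.25) but had an adjusted p of 0.0518 in the 6-sample fit. Of 25 growth factor and cytokine receptors, 7 were higher and 8 lower. Il17ra, the interleukin-17 receptor, was at 9.12, 9.45 and 9.78 in CD11bhigh cells, against 5.45, 6.70 and 6.53 in F4/80high cells (3.22 ± 0.20). Both chains of the TGF-beta receptor were lower, Tgfbr1 by -1.80 ± 0.17 and Tgfbr2 by -1.94 ± 0.18. They were among 6 of 19 TGF-beta and BMP genes that were lower, with Bmp2 (-2.83 ± 0.37), Acvrl1 (-1.52 ± 0.22) and Eng.

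Genes of uptake and digestion are read against the same shares, 14.4% lower and 9.12% higher. Of 28 lysosome and cathepsin genes, 15 were lower in CD11bhigh cells (13 in the 6-sample fit), with a median difference of -0.55 over the list. Ctsf, a cysteine cathepsin, was at 6.06, 4.83 and 3.18 in CD11bhigh cells, against 7.11, 7.12 and 7.24 in F4/80high cells (-2.46 ± 0.32). Smaller differences with less scatter were those of Lgmn (-1.62 ± 0.25), Gusb (-1.44 ± 0.15), Hexa (-1.35 ± 0.16) and Ctsc (-1.22 ± 0.17). Of 28 scavenger and efferocytosis receptors, 10 were lower and 6 higher, the higher ones including the inhibitory receptor gene Cd300lf (2.10 ± 0.32). All 4 Fc receptor genes that were called, of 8, were lower, namely Fcgr1 (-1.77 ± 0.26), Fcgr3 (-1.20 ± 0.21), Fcgrt (-0.93 ± 0.25) and Fcgr4 (-0.90 ± 0.29). The call for Fcgr4 was lost without CD11bhigh replicate 1 (-0.82), F4/80high replicate 1 (-0.78) or F4/80high replicate 2 (-0.81).

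Of 33 pattern recognition receptors, 17 were lower (9 in the 6-sample fit and 11 without replicate 1 of both gates) and 4 higher (1 in the 6-sample fit, and 2 without CD11bhigh replicate 3, F4/80high replicate 1 or F4/80high replicate 3). The toll-like receptor genes Tlr1 (-2.41 ± 0.31), Tlr4 (-2.06 ± 0.25) and Tlr12 (-2.69 ± 0.32) were lower. Mefv, the gene for the inflammasome sensor pyrin, was at 6.35, 6.30 and 6.15 in CD11bhigh cells, against 1.97, 2.02 and 2.28 in F4/80high cells (4.17 ± 0.29). It was below the floor in every F4/80high sample. Of 31 interferon-stimulated genes, 9 were lower (5 without replicate 1 of both gates) and 4 higher. The shares of all genes were 14.4% lower and 9.12% higher, so in both lists the count of higher genes was near its share. Slfn4 (3.87 ± 0.41) was higher, while Rsad2 (-2.09 ± 0.35), Ifit2 (-1.72 ± 0.25) and Oas2 (-1.39 ± 0.30) were lower.

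Of 20 lipid handling genes, 9 were lower and 5 higher, against 14.4% and 9.12% of all genes. Abca1, the cholesterol exporter, was at 5.35, 4.45 and 5.55 in CD11bhigh cells, against 7.55, 8.12 and 7.92 in F4/80high cells (-2.75 ± 0.29), and Apoe was lower as well (-1.55 ± 0.23). Apoc2, the cofactor of lipoprotein lipase, was at 6.81, 7.52 and 7.68 in CD11bhigh cells, against 3.12, 4.18 and 4.24 in F4/80high cells (3.49 ± 0.41). Of 16 iron and heme genes, 9 were lower and 2 higher (1 without CD11bhigh replicate 1 or 3 or F4/80high replicate 2 or 3), calls that the 6-sample fit lost. Slc40a1, which encodes the iron exporter ferroportin, was at 4.56, 4.09 and 5.03 in CD11bhigh cells, against 7.18, 8.06 and 6.82 in F4/80high cells (-2.79 ± 0.34). Spic, a transcription factor of iron-recycling macrophages, was lower too (-2.73 ± 0.36).

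Of 14 MHC class II presentation genes, 4 were higher and 2 lower (1 without CD11bhigh replicate 2 or F4/80high replicate 2). The 6-sample fit turned this balance round, with 2 higher and 4 lower. In the fit of all samples the shares of all genes were 9.12% higher and 14.4% lower. The count of lower genes was near its share in that fit only. H2-Oa (1.93 ± 0.37) and H2-DMb2 (1.90 ± 0.36) were higher and the co-stimulator gene Cd86 was lower (-2.15 ± 0.23). The classical class II genes H2-Aa (-0.38) and H2-Ab1 (-0.27) did not pass. Of 14 class I processing genes, 4 were lower (1 in the 6-sample fit and 2 without F4/80high replicate 2), with H2-M3 at -1.52 ± 0.27.

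Adhesion genes and a list made mostly of S100 and annexin genes were higher more often than lower. Of 23 integrin and adhesion genes, 13 were higher (8 in the 6-sample fit) and 5 lower, against 9.12% and 14.4% of all genes. The gate gene Itgam was among the 13. Itgb7 (2.93 ± 0.26), Itgal (2.06 ± 0.22) and Itga4 (1.89 ± 0.20), chains of leukocyte homing integrins, were higher, and Itga9 was at 5.12, 3.83 and 4.45 in CD11bhigh cells, against 8.32, 8.32 and 7.99 in F4/80high cells (-3.74 ± 0.25). Of the 19 genes of the second list, which also holds Vim, Lgals1, Lgals3, Ahnak and Crip1, 13 were higher (12 in the 6-sample fit). Anxa3 (-0.88) was lower. Its members S100a4, S100a6, S100a8, S100a9 and S100a10 are also counted in the monocyte or neutrophil list. Anxa2, an annexin of the cell membrane, was at 9.26, 9.33 and 9.45 in CD11bhigh cells, against 6.44, 5.96 and 6.15 in F4/80high cells (3.16 ± 0.20). The S100a4 level was 9.69, 9.75 and 10.07 in CD11bhigh cells, against 6.88, 6.79 and 6.96 in F4/80high cells (2.96 ± 0.33). Of 13 Ms4a genes, 4 were higher and 2 lower, a lower count near the share of all genes. Among 21 matrix and protease genes, 10 were higher and 4 lower. The urokinase receptor gene Plaur (3.97 ± 0.31) and Emilin2 (3.56 ± 0.20) were among the higher matrix and protease genes.

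Of 35 myeloid transcription factors, 9 were higher and 7 lower, against 9.12% and 14.4% of all genes. Bhlhe40 and Bhlhe41 encode closely related repressors that bind E-boxes, and they differed in opposite directions. Bhlhe40 was at 8.72, 8.92 and 9.26 in CD11bhigh cells, against 5.96, 5.01 and 5.20 in F4/80high cells (3.58 ± 0.30). Bhlhe41 was at 2.26, 2.48 and 2.22 in CD11bhigh cells, against 4.08, 4.93 and 5.83 in F4/80high cells (-2.62 ± 0.31). Cebpb, a C/EBP factor, was higher (1.501 ± 0.18), as was Nr4a1 (1.34 ± 0.27), a factor that Ly6C-low monocytes need. Maf, a factor of differentiated macrophages, was lower (-1.94), and Spi1 (0.17) did not pass. Irf8 was at 8.44, 9.25 and 9.33 in CD11bhigh cells, against 9.54, 9.62 and 9.64 in F4/80high cells (-0.59 ± 0.25, limma adjusted p = 0.0762), so it did not pass although its samples did not overlap. Of 25 genes of the immediate early and heat shock responses, 6 were higher, such as Fosl2 (1.84 ± 0.27) and Dusp2 (1.65 ± 0.30), and 2 were lower (1 without CD11bhigh replicate 1, F4/80high replicate 1 or F4/80high replicate 2). That lower count did not exceed the share of all genes.

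Of 25 cell cycle genes, 13 were lower in CD11bhigh cells in the fit of all samples and 5 in the 6-sample fit, and 8 without CD11bhigh replicate 1 or without F4/80high replicate 1. The share of all genes that were lower in the fit of all samples was 14.4%, and the 6-sample fit called 883 of 17099 lower. Those with the smallest adjusted p were genes of DNA replication. Mcm3, a subunit of the replicative helicase, was at 5.50, 5.23 and 5.43 in CD11bhigh cells, against 6.85, 6.75 and 6.94 in F4/80high cells (-1.46 ± 0.16). Mcm6 (-1.47 ± 0.22), Mcm4 (-1.10 ± 0.17) and Mcm5 (-1.07 ± 0.22) followed, with Uhrf1 (-1.71 ± 0.31), a factor of maintenance methylation. The mitotic genes Mki67 (-0.34) and Top2a (-0.52) did not pass.

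The same contrast of gates was next set beside that of the other 3 settings. The 3 tests of a difference between contrasts share the 6 adult wild-type kidney samples. In kidneys labelled Irf8 knockout, Irf8 itself was at 8.08, 7.85 and 8.81 in CD11bhigh cells and at 9.92, 9.73 and 9.63 in F4/80high cells, so the array signal was not lost. Where the probe lies relative to the deleted part was not given in the sources used here, and the signal therefore does not check the label. In these samples 1361 genes were higher in CD11bhigh cells (7.96%) and 1900 lower (11.1%). In liver 2612 genes were higher in CD11bhigh than in Kupffer cells (15.3%) and 2178 lower (12.7%). In embryonic kidney 463 were higher (2.71%) and 531 lower (3.11%). Of the 15 largest rises, 15 were also called higher in the Irf8 knockout contrast, 13 in liver and 11 in embryonic kidney. Of the 15 largest falls, 14 were called lower in the Irf8 knockout contrast, 12 in liver and 13 in embryonic kidney. Ace, Ccl17, Chil3 and Fn1 were the rises not called at embryonic day 14, and Hp and Il6 those not called in liver.

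**Figure D5:**
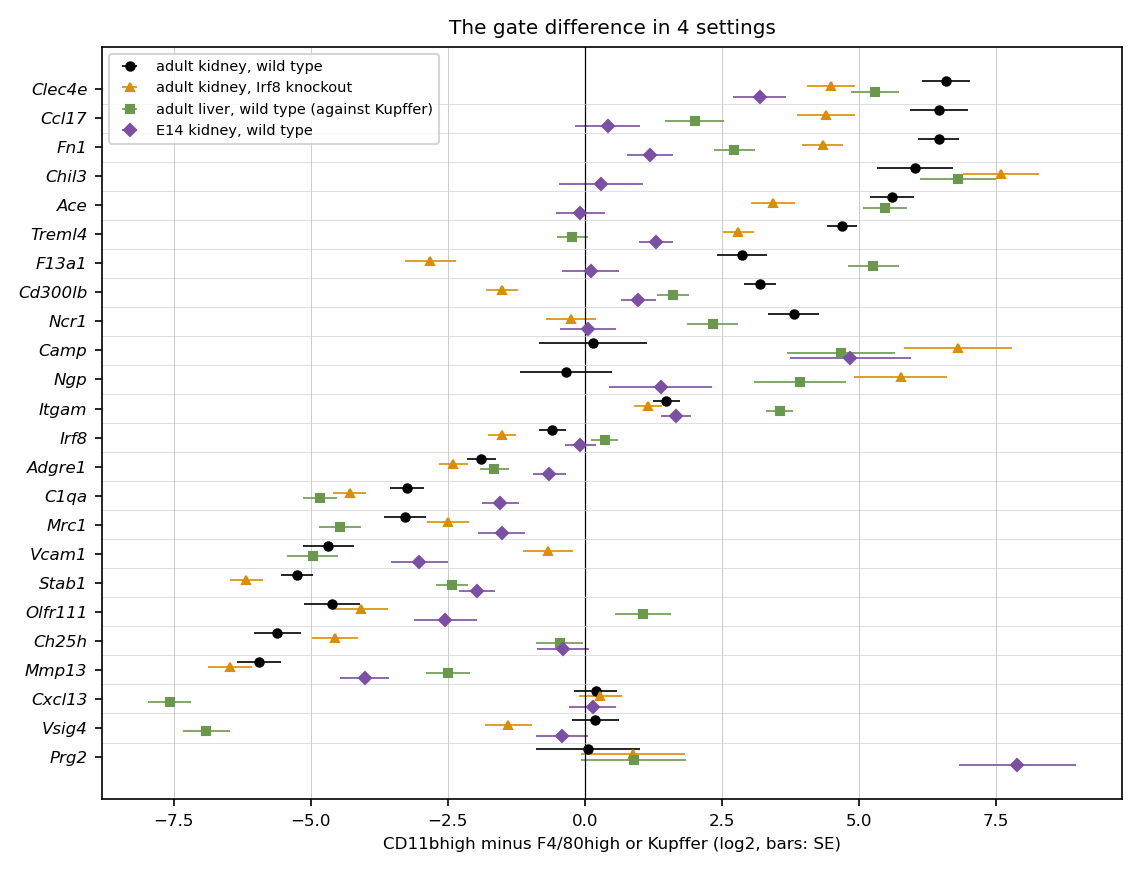
The CD11bhigh minus F4/80high difference (log2, with SE) is plotted for the gate genes, Irf8, some of the leading genes and other chosen genes. The 4 settings are adult wild-type kidney, adult kidney labelled Irf8 knockout, adult liver (CD11bhigh minus Kupffer) and kidney at embryonic day 14. Ch25h lies far below zero in both adult kidney contrasts and near zero in liver and at embryonic day 14.

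The difference between the gates was itself compared between wild-type and Irf8 knockout kidney. By limma, 1253 genes were called in this test (7.33%), 501 above zero (2.93%), where the gate difference was the more positive in wild type, and 752 below zero (4.4%). When the 12 adult kidney samples alone were fitted, 331 were called, 73 above zero and 258 below. The split also moved with single samples. The count above zero was 864, against 850 below, without wild-type CD11bhigh replicate 3, and 333 without wild-type F4/80high replicate 3. The cell cycle list moved as a whole. All 25 of its genes were below zero (22 in the 12-sample fit), with a median of -2.97 against 0.01 over all genes. In wild-type mice the list's mean level was 5.40, 5.34 and 5.53 in CD11bhigh cells, against 6.19, 6.23 and 5.98 in F4/80high cells. In Irf8 knockout mice it was 7.01, 7.01 and 6.87 in CD11bhigh cells, against 5.26, 4.79 and 4.79 in F4/80high cells. The order of the gates was thus turned round. Top2a, the mitotic topoisomerase, was at 7.99, 8.06 and 7.85 in knockout CD11bhigh cells, against 5.32, 4.84 and 4.47 in knockout F4/80high cells (3.09 ± 0.31), and the difference of the 2 contrasts was -3.61 ± 0.44 (adjusted p = 8.72e-09).

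Neutrophil granule genes gave the largest values below zero. Of 24 neutrophil markers, 11 were below zero (10 in the 12-sample fit), against 4.4% of all genes. Camp was at 2.61, 2.36 and 1.96 in wild-type CD11bhigh cells and at 10.73, 10.70 and 10.12 in knockout CD11bhigh cells. Ltf, the lactoferrin gene, was at 2.58, 2.93 and 3.12 in wild-type CD11bhigh cells and at 10.16, 9.51 and 8.71 in knockout CD11bhigh cells. Both transcripts were near or below the floor in the wild type and far above it in the knockout. The list's mean level was 3.97 to 5.01 in wild-type CD11bhigh samples and 7.13 to 7.61 in knockout ones. The part that neutrophil RNA had in the difference between genotypes, cell cycle genes included, was not tested.

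In the other direction, 10 of 29 monocyte markers (3 in the 12-sample fit) and 7 of 24 natural killer and T cell markers (4) were above zero. The share of all genes above zero was 2.93%. F13a1 was at 6.52, 6.12 and 6.42 in knockout CD11bhigh cells, against 9.30, 9.19 and 9.04 in knockout F4/80high cells, the reverse of its order in the wild type (difference of contrasts 5.69 ± 0.66, adjusted p = 0.00381 in the 12-sample fit). Ncr1 was at 5.90, 6.81 and 7.04 in wild-type CD11bhigh cells and at 3.34, 2.46 and 2.18 in knockout CD11bhigh cells. So Ncr1 was near or below the floor in the knockout gate, while the mean level of the natural killer and T cell list was 5.50 to 6.16 in wild-type and 4.03 to 4.66 in knockout CD11bhigh cells. Vcam1 was at 7.19, 8.93 and 7.53 in wild-type F4/80high cells and at 4.44, 2.87 and 2.58 in knockout F4/80high cells, and its difference of contrasts was -4.01. Of the leading 30, the rises Ace, Clec4e, Fn1, Gda and Gpr141 and the falls Plxna4 and Vcam1 differed by more in wild type than in knockout. Their choice by size in wild type favours this side. Tubule markers were above zero for 8 of 27 genes, calls that the 12-sample fit lost.

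The gate difference in kidney was also set against that between CD11bhigh and Kupffer cells of liver. By limma, 3994 genes were called in this test (23.4%), 1559 above zero (9.12%) and 2435 below (14.2%), so 39.0% of calls were above zero. After quantile normalization of all arrays, 56.3% were, so the split is given with both values and the direction is read for named genes with large differences. The list counts against liver further below rest on the deposited values alone. Their split may move with the normalization too, and no list count after quantile normalization is given. The 12 samples alone gave 1925 calls. The largest values above zero came from Kupffer cells. Cxcl13, a B cell chemokine, was at 2.84, 3.02 and 2.80 in kidney CD11bhigh cells and 2.81, 2.64 and 2.62 in kidney F4/80high cells, and at 2.72, 2.63 and 2.93 in liver CD11bhigh cells, against 10.40, 10.27 and 10.34 in Kupffer cells. Vsig4, a complement receptor of Kupffer cells, and Cd5l, a secreted macrophage protein, were at or below the floor in all 6 kidney samples and at 10.57 to 11.01 in Kupffer cells. These 3 genes did not separate the gates of the kidney.

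The largest values below zero were genes bright in kidney F4/80high cells. Ch25h was at 8.67 to 9.22 in kidney F4/80high cells, but at 2.52, 2.84 and 2.39 in liver CD11bhigh cells, against 2.89, 2.73 and 3.52 in Kupffer cells (difference of contrasts -5.15 ± 0.60). Olfr111 was near or below the floor in both liver populations (-5.68 ± 0.72). Clec5a, a receptor that signals through DAP12, was at 4.08, 2.91 and 6.14 in kidney CD11bhigh cells, against 6.79, 6.72 and 6.59 in kidney F4/80high cells, and at 5.41, 5.39 and 5.57 in liver CD11bhigh cells, against 2.75, 1.88 and 3.36 in Kupffer cells. Its order was thus opposite in the 2 organs (-5.11 ± 0.56), although the kidney difference had an adjusted p of 0.0819 in the 6-sample fit. Of the leading 30 genes, 6 rises and 9 falls differed by more in kidney than in liver, the side that their choice by size in kidney favours. Among them was Hp, at 9.72, 9.63 and 10.20 in liver CD11bhigh cells, against 9.28, 9.72 and 8.94 in Kupffer cells.

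In the comparison with liver, the shares of all genes were 9.12% above zero and 14.2% below. Of 19 endothelial markers, 14 were above zero (9 in the 12-sample fit). Their mean level was 2.94 to 3.41 in kidney CD11bhigh and 2.87 to 3.05 in kidney F4/80high cells, and 2.97 to 3.17 in liver CD11bhigh cells, against 4.73 to 6.16 in Kupffer cells. Of 25 immediate early and heat shock genes, 12 were below zero (8), with a mean level of 8.64 to 9.22 in kidney CD11bhigh and 8.73 to 9.01 in kidney F4/80high cells, and 7.99 to 8.02 in liver CD11bhigh cells, against 6.66 to 7.48 in Kupffer cells. Both lists thus varied most in Kupffer cells, and their part in the other differences was not tested. Of 27 tubule markers, 17 were above zero (5), and their mean level in liver was 2.57 to 3.36. Of 33 pattern recognition receptors, 13 were below zero in both fits and 2 above (1 in the 12-sample fit), and of 39 resident macrophage genes 13 were above (14) and 6 below (4). In the fit of all samples, the 2 receptors above zero did not exceed their share, and the 6 resident macrophage genes below were near theirs.

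The gate difference of adult kidney differed from that at embryonic day 14 for 1444 genes (8.44%), 585 above zero (3.42%) and 859 below (5.02%). The fit of the 11 samples alone called 560. The embryonic F4/80high group had 2 samples, and leaving out its replicate 2, with the lone sample assumed to vary like the other groups, gave 736 calls, 337 above zero and 399 below. The count above zero was 375 without replicate 1 of that group and 922 without adult CD11bhigh replicate 3, and after quantile normalization 702 genes were above zero and 703 below. Ccl17 was at 2.76, 2.61 and 2.49 in embryonic CD11bhigh cells, against 1.97 and 2.43 in embryonic F4/80high cells, so the chemokine was near or below the floor in both (difference of contrasts 6.05 ± 0.80). Ace was at 2.80, 3.26 and 3.07 in embryonic CD11bhigh cells, against 2.76 and 3.51 in embryonic F4/80high cells (5.69 ± 0.60). Fn1 was at 6.94, 6.73 and 6.92 in embryonic CD11bhigh cells, against 5.90 and 5.46 in embryonic F4/80high cells (5.27 ± 0.56). These 3 genes separated the adult gates by over 5 on the log2 scale and did not pass the test between the embryonic ones.

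Lyve1, a hyaluronan receptor of fetal and perivascular macrophages, behaved differently. It was at 3.14, 3.00 and 2.81 in adult CD11bhigh cells, against 2.77, 3.22 and 3.18 in adult F4/80high cells, and at 4.47, 3.83 and 3.25 in embryonic CD11bhigh cells, against 9.59 and 9.82 in embryonic F4/80high cells. Its value above zero (5.78 ± 0.81) therefore came from the embryonic F4/80high samples. Of 14 basophil, mast cell and eosinophil markers, 10 were below zero (8 in the 11-sample fit), against 5.02% of all genes. Their mean level was 2.33 to 3.37 in adult CD11bhigh and 2.32 to 2.54 in adult F4/80high cells, and 5.75, 5.79 and 4.71 in embryonic CD11bhigh cells, against 2.59 and 2.58 in embryonic F4/80high cells. Prg2, the eosinophil major basic protein gene, was at 10.67, 10.68 and 9.21 in embryonic CD11bhigh cells, against 1.94 and 2.65 in embryonic F4/80high cells. Granulocyte transcripts were thus bright in the embryonic CD11bhigh gate, and their part in this difference was not tested.

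Against embryonic kidney, the shares of all genes were 3.42% above zero and 5.02% below. Of 24 natural killer and T cell markers, 9 were above zero (8 in the 11-sample fit) and 4 below (4). Of 31 interferon-stimulated genes 12 were below zero (8) and 1 above, the latter near its share. Of 39 resident macrophage genes, 4 were above zero (2) and 10 below (8). C1qc was lower in adult CD11bhigh cells by -2.85 ± 0.39, while the embryonic difference of -0.61 ± 0.43 did not pass. Of the leading 30, 7 rises and 9 falls differed by more in the adult kidney than in the embryonic one, the side that their choice favours. They include P2ry12, whose embryonic difference was -0.62 and did not pass.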

How the data were processed

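RNA from sorted cells was isolated with the PicoPure kit, amplified with Ovation PicoSL reagents and given biotin with an Encore kit, per the labels' protocols. The authors deposited log2 intensities per probe, which per the submitters' processing notes were made by RMA with Affymetrix Expression Console. RMA pools probes and compresses differences near background, so log2 differences from values at the floor are not exact fold changes. The array's genome build is not stated in the sources used here.

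The deposited table has 41345 probes in 81 arrays. Of these, 25335 were annotated and 23521 had exactly 1 gene symbol. The probe with the highest mean stood for its gene (22180 genes), and 17099 genes over 3.041, the 50th percentile of the table, in at least 2 arrays were tested. The 2 runs of 1 sample were averaged, and 0 columns were left unused. Every array's precision is limited by the number of samples. Group means of 80 samples in 27 groups were fitted with limma 3.58.1 in R 4.3.3 (moderated test with a variance trend, two-sided, Benjamini-Hochberg over all genes, threshold 0.05), and differences between contrasts were tested as interaction contrasts in this fit. The code of the fit was also run on simulated data, and no outcome of that run is used here. Alternatives were a fit of the compared groups alone, of the 4 adult kidney groups, with the replicate number as a block, array weights, quantile normalization, median centring, other floors, every probe, no variance trend and each sample left out, and, added after the data were seen, replicate 1 of both gates left out. Tables were handled with Python 3.11.15 and pandas 2.3.3.

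Named genes were the gate genes, Irf8, the 15 largest rises and falls among called genes without overlap, up to 5 members of each of 36 lists by adjusted p, defining markers of other cell types, the 5 largest values in each direction of each difference between contrasts and the 8 genes with the largest SD in each gate. Other list members are named as examples chosen after their values were seen. The members and lists were chosen with earlier results of these data known. Promoters are from RefSeq tables.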

Additional observations from a re-analysis of the deposited data

Results flagged for a closer look

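For each of 3 differences between gate contrasts, the 5 genes with the largest value in each direction are given, because the limma test of the difference itself called them. A value above zero means that CD11bhigh minus F4/80high was more positive in adult wild-type kidney. All values are on the log2 scale.

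Against kidney labelled Irf8 knockout, the values above zero were F13a1 (5.69), Cd300lb (4.71), Ncr1 (4.06), Apoc1 (3.84) and Klra9 (3.79), of which Klra9 had an adjusted p of 0.0711 when the compared samples alone were fitted. The values below zero were Camp (-6.66), Ngp (-6.11), Ltf (-5.94), Wfdc21 (-5.18) and Lcn2 (-4.88), all genes of neutrophil granules or secretions. Cd300lb, an activating receptor of myeloid cells, was at 5.82, 6.26 and 6.79 in wild-type CD11bhigh cells, against 3.56, 2.87 and 2.85 in wild-type F4/80high cells, and at 6.14, 5.36 and 4.96 in knockout CD11bhigh cells, against 7.005, 6.82 and 7.17 in knockout F4/80high cells. Apoc1 was likewise higher in CD11bhigh cells of the wild type and lower in those of the knockout.

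Against the contrast of CD11bhigh with Kupffer cells in liver, the values above zero were Cxcl13 (7.78), Paqr9 (7.45), Cd5l (7.40), Pcolce2 (7.13) and Vsig4 (7.10), and those below zero were Olfr111 (-5.68), Ch25h (-5.15), Clec5a (-5.11), Cd93 (-4.80) and Myo5a (-4.59). Against kidney at embryonic day 14, the values above zero were Ccl17 (6.05), Lyve1 (5.78), Chil3 (5.74), Ace (5.69) and Fn1 (5.27), and those below zero were Prg2 (-7.84), Stfa1 (-7.23), Cstdc4 (-6.94), Stfa3 (-6.28) and Ch25h (-5.22). Stfa1, Stfa3 and Cstdc4 encode stefins, cysteine protease inhibitors of granulocytes.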

How the results depend on the processing

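The count of 4030 genes called between the gates was 1387 with the 6 samples alone, 2095 with the 4 adult kidney groups and 1399 with the replicate block (593 higher and 806 lower). Of these 1399, 1380 were among the 4030, and 1171 genes were called in the fit of all samples, the 6-sample fit and the block fit alike. Under array weights, scaling, floors, every probe and no variance trend the count was 2835 to 4282, and with any 1 sample or replicate 1 of both gates left out 3146 to 4026. Deviations from the gate means had correlations of 0.386, 0.0992 and 0.0963 between same-numbered wild-type samples of the 2 gates. Between differently numbered ones they ran from -0.35 to 0.282. As the labels name no shared animal, the numbers were not taken as pairs. The 1253 calls between wild-type and Irf8 knockout contrasts were 331 in the fit of the 4 adult kidney groups, which here are the compared groups. They were 330 with the replicate block, 726 with array weights and 897 to 1714 with 1 sample left out. The 3994 calls against liver were 1925 in the fit of the compared groups and 3417 to 4350 with 1 sample left out, and the 1444 against embryonic kidney were 560 and 736 to 1933, with 736 without embryonic F4/80high replicate 2. Fewer samples in a fit leave fewer degrees of freedom for the spread, and the fit of all samples pools it over groups that mostly varied less than CD11bhigh. Of 172 named genes called, 145 kept their call under every alternative, and no named gene was reversed. The call was lost by 22 in the 6-sample fit, 19 with 4 groups, 13 with the block and 11 with array weights. The share of calls above zero against liver was 39.0% as deposited and 56.3% after quantile normalization. The share between the gates was 38.7% and 47.0%. Of the genes higher in CD11bhigh cells, 292 had every F4/80high value at or below the floor, and 145 of the lower ones had every CD11bhigh value there, so the size of those differences is limited by background signal.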

Other observations

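The genes that varied most among the 3 CD11bhigh samples were of several kinds. Jchain, the joining chain of secreted antibodies, was at 2.50, 1.87 and 8.26, and Retnla, a resistin-like protein of alternatively activated macrophages and eosinophils, at 2.27, 2.76 and 7.27, so replicate 3 alone was high for both. Both were at or below 1.77 in every F4/80high sample. Their calls (2.48 ± 0.66 and 2.72 ± 0.79) were lost in the 6-sample fit, with limma adjusted p of 0.348 and 0.192. Tubule and other kidney genes varied the other way, with Egf at 9.06, 2.83 and 4.14, Gpx6 at 7.88, 2.55 and 3.28 and Apela at 7.002, 1.88 and 2.41 in CD11bhigh replicates 1 to 3.

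Among the 3 F4/80high samples, the widest spread was also mostly in kidney genes, such as Slc12a1 at 8.02, 3.93 and 7.40. Cbr2, a carbonyl reductase found in some resident macrophages, was an exception. It was at 2.87, 3.49 and 3.16 in CD11bhigh cells, against 4.17, 8.17 and 7.54 in F4/80high cells (-3.45 ± 0.46, adjusted p = 0.0518 in the 6-sample fit), so F4/80high replicate 1 stood below the other two.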
